A study of Mus musculus with 20 samples.

Results

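The fibroblast and embryonic stem cell (ESC) endpoints of a reprogramming study were compared by ATAC-seq, an assay in which a transposase inserts sequencing adapters where DNA is exposed. The endpoints were chosen by sample title. They comprised 4 of the 20 ATAC-seq libraries, 1 from mouse embryonic fibroblasts (MEFs) and 3 from ESCs, and no library of the reprogramming time courses was used. Peaks of the 4 libraries that overlapped by 1 bp or more gave 215028 regions after merging, and open means that the library had a peak there. Regions open in the MEF library and in no ESC library are called MEF-only, those found in 2 or 3 ESC libraries but not in MEFs are called ESC-only, and regions open in MEFs and at least 2 ESC libraries are called shared.

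Accessible chromatin marks DNA that is not wrapped tightly in nucleosomes. Promoters of broadly used genes are open in most cell types, and many of them are CpG islands, whereas enhancers, which lie away from start sites and are bound by transcription factors, tend to be open in the cell types that use them. Fibroblasts are mesenchymal cells that make extracellular matrix and use AP-1 and TEAD factors at many of their enhancers, while ESCs are pluripotent cells whose identity depends on OCT4 (the product of Pou5f1), SOX2, NANOG, ESRRB and KLF factors. The comparison asks which chromatin would have to close and which to open for a fibroblast to take on the accessibility of an ESC.

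The MEFs came from E13.5 embryos of either sex from OG2 males (CBA/CaJ x C57BL/6J), which carry an Oct4-GFP reporter allele, mated with wild-type 129 females (129S2/SvPasCrl), and were not transduced. The ESCs were derived from embryos of OG2 mice and kept without feeders in N2B27 medium with 2iL, so the reporter was present in both groups. By title these 3 samples are ESCs, but the fields for source, cell line and cell type give MEF, and the title was used for grouping. Nothing states that the 3 ESC libraries came from separate cultures or lines, so the spread between them may be technical. Cell type, genetic background and medium differ together between the groups and cannot be told apart. With 1 MEF library no exact permutation test of MEFs against ESCs can give a p below 0.25, so no test is given. Errors are the SD over the 3 ESC libraries, or over 3 comparisons of the MEF library with each ESC library in turn (n = 3), and all 3 comparisons use the same MEF library. Exact binomial 95% intervals cover counting error only.

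The markers were checked against all protein-coding genes, of which 70.3% had a promoter with a peak in MEFs and 71.2% to 72.9% in the ESC libraries. All 7 fibroblast markers (Col1a1, Col1a2, Col3a1, Thy1, Pdgfra, Twist1 and Prrx1) had an open promoter in MEFs, and 6 of them did in each ESC library, so presence of a peak alone hardly separated the groups at these genes. At the 6 promoters open in all 4 libraries, MEFs had the highest pileup at 5, the exception being Pdgfra. Here and for the gene lists below, each library's highest pileup over the regions within 2 kb of any start site was taken. The libraries can therefore be compared at different regions of a gene. The 7 pluripotency markers (Nanog, Pou5f1, Sox2, Esrrb, Zfp42, Dppa5a and Tdgf1) were open in 7, 6 and 7 cases in the ESC libraries and in 5 cases in MEFs. At the 4 open in all libraries MEFs had the lowest pileup by this measure. At Nanog the MEF value came from a separate MEF-only region. In the Esrrb region open in all 4 libraries MEFs were not lower, with 14 against 11, 14 and 10 in ESCs. The 5 MEF cases include Pou5f1, where the MEF peak lay inside the gene and was merged with wide ESC peaks that cover the start site. The pluripotency loci thus fit the ESC titles and not the fields that give MEF. The libraries held 125467 peaks in MEFs and 108671, 116006 and 97450 in ESC replicates 1, 2 and 3. They covered 40.5 Mb in MEFs and 28.8 to 35.9 Mb in ESCs. The files hold no read totals, so the depth is unknown, and chromatin below a library's detection limit counts as closed.

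Most open regions were not held in common. There were 79304 MEF-only regions (36.9% of all merged regions), 56706 ESC-only regions (26.4%) and 36270 shared regions (16.9%). By merged length the shared class was the largest, with 22.2 Mb against 21.7 Mb of MEF-only and 18.1 Mb of ESC-only DNA. Merging over several libraries widens shared and ESC-only regions but not MEF-only ones, so these lengths are not alike. Of the 40.5 Mb covered by all MEF peaks, 21.7 Mb was MEF-only, so within the MEF library this class was the largest. The other 42748 regions had a mixed pattern and were kept out of the 3 classes. Of these, 38073 were open in 1 ESC library without MEFs and 4675 in MEFs and 1 ESC library. Of the ESC-only regions 37114 (65.4%) were open in all 3 ESC libraries, and of the shared regions 31981 were open in all 4 libraries. MEFs and each ESC library shared 0.197 to 0.200 of the regions open in either (Jaccard index), against 0.623 to 0.644 between ESC libraries. In the comparisons with 1 ESC library at a time there were 84800 ± 1808 MEF-only, 66468 ± 8235 ESC-only and 37211 ± 1428 shared regions (mean ± SD, n = 3). The class sizes are not symmetric, since a MEF-only region rests on 1 MEF library and an ESC-only region on at least 2 ESC libraries.

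How often a region was found again depended on its pileup, the number of tags over the summit of the peak, here split into quintiles (5 equal groups) within each library. In the lowest quintile of MEF regions by pileup, 17.7% were also open in an ESC library, and in the highest quintile 62.2% were. The strongest quintile of MEF regions thus still held 37.8% that no ESC library shared. Between ESC libraries nearly all strong regions were found again. In the highest quintile, 99.9% of regions of each ESC library were open in another ESC library, while in the lowest quintile this was 62.5% in ESC replicate 1, 49.8% in ESC replicate 2 and 72.8% in ESC replicate 3. Of the highest quintile of ESC regions, 73.2%, 71.0% and 74.5% were open in MEFs. Weak ESC regions were thus found less regularly than strong ones, and weak MEF-only regions have no second MEF library to be checked against. In bulk cells, fewer open cells and less opening per cell cannot be told apart.

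**Figure D1:**
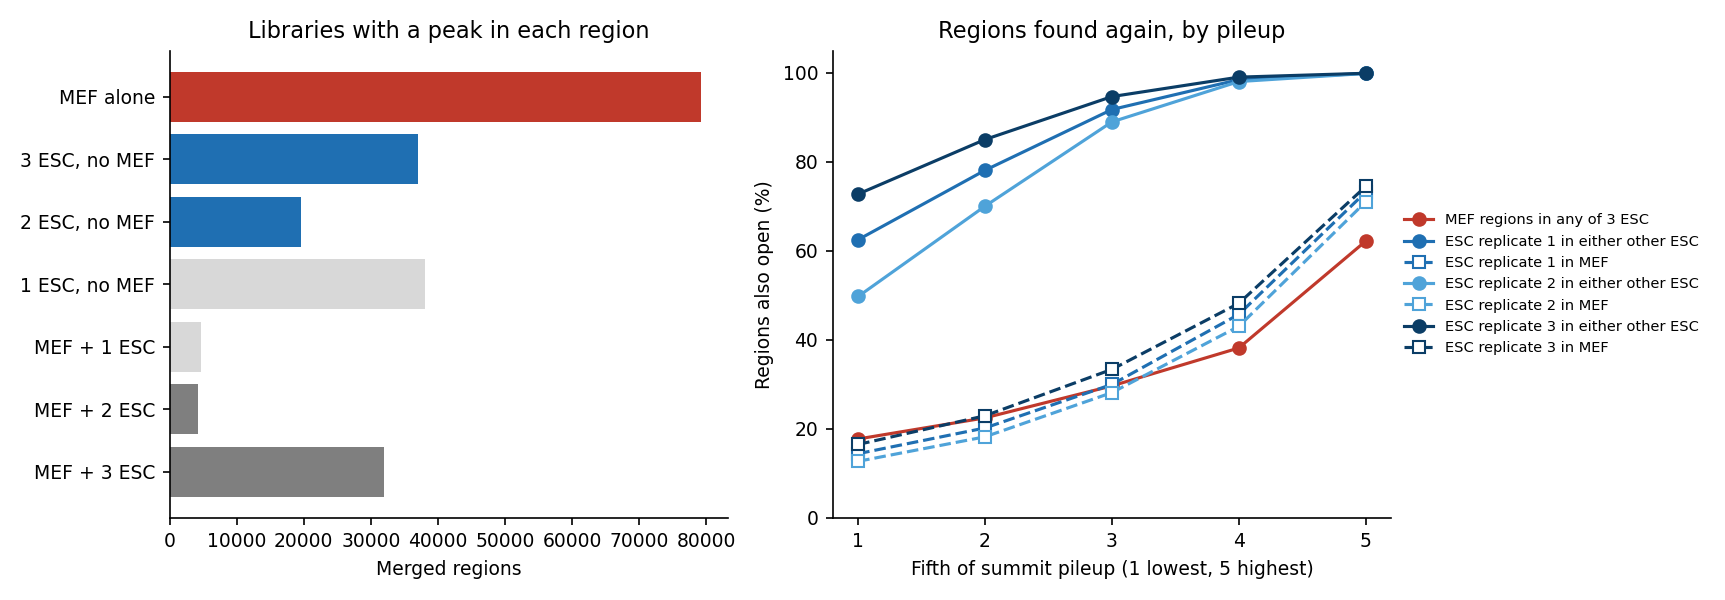
Left, number of merged regions by the libraries with a peak, with MEF-only in red, ESC-only in blue, shared in dark grey and mixed patterns in light grey. Right, the percentage of regions also open elsewhere, by quintile of summit pileup in the library named, with solid lines for regions found in an ESC library and dashed lines for ESC regions found in MEFs. ESC regions of the highest quintile reach 99.9% in another ESC library, and MEF regions of the highest quintile reach 62.2% in any ESC library.

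The 3 strongest regions of each class are shown as 101 bp around the summit, from the mm10 plus strand, 5′ to 3′, because they are the loci with the highest coverage in the class. Strength was the scaled pileup, that is, the pileup divided by its median in the library over regions open in all 4 libraries. MEF-only regions were ranked by its value in MEFs, ESC-only regions by the lowest value of the 3 ESC libraries and shared regions by the lowest of all 4. Capitals mark matches, anywhere in the window, to the 15 motifs described later. The strongest MEF-only regions lay in introns of Smyd3 (chr1:179041959-179042059), a methyltransferase gene, of Il1rl1 (chr1:40444842-40444942), which codes for the interleukin-33 receptor, and of Trio (chr15:27782776-27782876), a guanine nucleotide exchange factor gene. Their pileups in MEFs were 144, 133 and 124, with no peak in any ESC library.
Smyd3 intron: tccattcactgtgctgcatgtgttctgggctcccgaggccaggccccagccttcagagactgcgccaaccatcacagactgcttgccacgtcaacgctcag
Il1rl1 intron: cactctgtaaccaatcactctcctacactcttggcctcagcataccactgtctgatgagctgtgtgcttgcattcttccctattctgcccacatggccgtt
Trio intron: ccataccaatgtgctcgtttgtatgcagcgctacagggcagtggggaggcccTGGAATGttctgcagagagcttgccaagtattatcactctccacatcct
The capitals in the Trio window are a TEAD motif on the minus strand. The next MEF-only regions were 55.1 kb from a start site of Slit3 with a pileup of 121, in an exon of Ccdc97 with 117, and 123 kb from C1d with 116.

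The strongest ESC-only regions lay at a promoter of Sfi1 (chr11:3185917-3186017), a centrosome gene, in the intergenic DNA 48.2 kb from a start site of Rybp (chr6:100335590-100335690), whose product is a subunit of Polycomb repressive complex 1, and at a promoter of C2cd5 (chr6:143020901-143021001). Pileups in ESC replicates 1, 2 and 3 were 128, 121 and 96 at Sfi1, 83, 102 and 75 near Rybp, and 82, 95 and 84 at C2cd5. MEFs had no peak at any of them.
Sfi1 promoter: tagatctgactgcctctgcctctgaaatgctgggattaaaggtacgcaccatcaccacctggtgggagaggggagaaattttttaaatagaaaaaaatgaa
Rybp 48.2 kb: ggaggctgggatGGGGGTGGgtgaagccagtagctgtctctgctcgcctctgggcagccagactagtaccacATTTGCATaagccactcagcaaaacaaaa
C2cd5 promoter: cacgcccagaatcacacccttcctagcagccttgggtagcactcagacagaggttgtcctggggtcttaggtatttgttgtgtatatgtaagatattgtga
The Rybp window holds a KLF motif and an octamer, the sequence bound by OCT4, in capitals. A further ESC-only region lay 90.7 kb from Rybp, with pileups of 81, 114 and 89, which in ESC replicates 2 and 3 are above those of the region 48.2 kb away. The others among the 6 strongest were 29.2 kb from Cd9, a tetraspanin gene, with 83, 91 and 69, and in an intron of Tbl1xr1 with 81, 92 and 71. A shared Sfi1 promoter region a few kb away had pileups of 121 in MEFs and 386, 418 and 332 in ESCs, and Sfi1 reads may be split with near-identical copies, so its values are uncertain.

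The strongest shared regions differed in kind from the rest. The first was 153 bp wide at Gm10222 on chromosome 1 (chr1:24612677-24612777), with pileups of 1408 in MEFs and 1048, 1167 and 1025 in ESCs, and the second lay beside it at Gm28438 (chr1:24613066-24613166), with 326 in MEFs and 377, 436 and 345 in ESCs. The third was a region of 5843 bp at Gm26917 (chr17:39844682-39844782), with 524 in MEFs and 191, 228 and 205 in ESCs, and its window holds a KLF motif.
Gm10222: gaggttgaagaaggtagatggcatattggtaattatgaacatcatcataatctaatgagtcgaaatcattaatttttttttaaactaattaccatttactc
Gm28438: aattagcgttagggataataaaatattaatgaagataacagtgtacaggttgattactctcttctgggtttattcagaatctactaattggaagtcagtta
Gm26917: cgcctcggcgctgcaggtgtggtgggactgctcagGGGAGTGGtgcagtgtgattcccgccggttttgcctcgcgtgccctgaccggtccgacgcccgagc
In ungapped comparison the Gm10222 and Gm28438 windows matched mitochondrial DNA at 86.1% and 99.0% of their bases, the Gm26917 window at 39.6%, and the windows of the strongest MEF-only and ESC-only regions at no more than 46.5%. The authors removed reads assigned to the mitochondrial genome, and the share of the first 2 pileups that came from nuclear DNA was not tested. Whether reads from other copies of the sequence add to the Gm26917 pileups was not tested either, so its values are uncertain. The other 3 of the 6 strongest were the promoters of Map3k3, Sfi1 and Pgap2. Of the 100 strongest shared regions 98 were at promoters, compared with 15 of the 100 strongest MEF-only and 22 of the 100 strongest ESC-only regions.

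Shared regions lay at promoters far more often than class-specific regions, which mainly lay away from them. A promoter was counted where the summit lay within 2 kb of an annotated transcript start. This held for 51.7% of shared regions (95% interval 51.2 to 52.2), 18.7% of ESC-only regions (18.3 to 19.0) and 13.6% of MEF-only regions (13.3 to 13.8). In the comparisons with 1 ESC library at a time the shares were 52.5% ± 1.22, 19.6% ± 0.575 and 14.9% ± 0.383 (SD, n = 3), so the 3 classes stood further apart than this spread. The share of shared regions was 46.1% with promoters of 1 kb and 46.5% with protein-coding start sites alone. MEF-only regions were in introns in 44.0% and between genes in 40.0%, ESC-only regions in 39.6% and 37.0%, and shared regions in 22.3% and 23.0%. Exons held 4.72% of ESC-only and 2.49% of MEF-only regions. The median distance to a start site was 14.2 kb for MEF-only, 9.15 kb for ESC-only and 1.64 kb for shared regions. Over 50 kb from any protein-coding start site lay 40.6% of MEF-only, 25.9% of ESC-only and 11.9% of shared regions.

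Shared regions were wider and had higher coverage than class-specific ones. The median peak was 224 bp wide in MEF-only regions, and 219 ± 11.0 bp (SD, n = 3) in ESC-only regions. With equal peak numbers per library these medians were 265 and 229 bp. The merged regions had medians of 224 bp (MEF-only), 266 bp (ESC-only, merged over up to 3 libraries) and 494 bp (shared), so which of the class-specific groups was wider depended on the measure. In shared regions the median peak was 288 bp in MEFs and 295 ± 14.7 bp in ESCs. The median pileup used for scaling, over the 31981 regions open in all 4 libraries, was 19 in MEFs and 20, 22 and 17 in ESCs. The median scaled pileup was 0.474 in MEF-only regions, 0.510 ± 0.0170 in ESC-only regions, and 0.842 in MEFs and 0.865 ± 0.0162 in ESCs over shared regions.

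Base composition followed the same order. The median GC content of the 301 bp around the summit was 45.2% in MEF-only, 49.5% in ESC-only and 54.8% in shared regions. Windows rich in CpG, with an observed-to-expected ratio above 0.6, made up 35.8% of shared, 4.75% of ESC-only and 2.20% of MEF-only regions. Among promoters alone they made up 62.0% of shared, 13.2% of ESC-only and 8.56% of MEF-only regions. A summit in repeat-masked sequence was found in 23.3% of ESC-only regions, against 8.92% of MEF-only and 7.13% of shared regions. Mixed regions, most of them open in 1 ESC library without MEFs, had nearly the same share, 21.6%. Over all peaks of a library it was 16.2% to 17.1% in ESCs and 8.33% in MEFs. With 1 ESC library at a time the shares in ESC-only, MEF-only and shared regions were 22.7% ± 0.163, 8.95% ± 0.0187 and 7.08% ± 0.0462 (SD, n = 3). The share was as high in the strongest quintile of ESC-only regions by mean scaled pileup (23.1%) as in the weakest (23.0%), and it was 24.6% away from promoters. The study's methods name the removal of repetitive reads without defining them, and the families of the repeats were not analysed here.

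**Figure D2:**
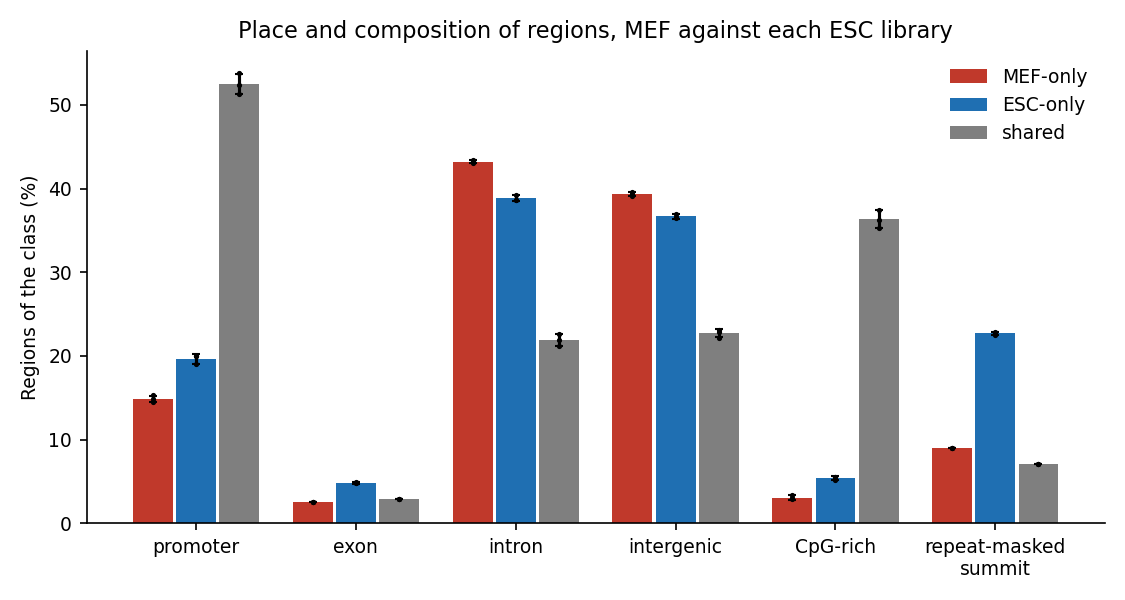
Percentage of MEF-only, ESC-only and shared regions at each kind of place, rich in CpG and with a repeat-masked summit. Bars are means over 3 comparisons of the MEF library with 1 ESC library, black points the comparisons and error bars the SD. Promoters make up 52.5% of shared regions, and repeat-masked summits are most frequent in ESC-only regions at 22.7%.

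Transcription factor motifs near the summit differed sharply between the classes. Each of 15 motifs was searched on both strands within 25 bp of the summit, and a match is a description of the sequence, not of binding. The AP-1 motif, TGANTCA, occurred in 15.8% of MEF-only regions, 1.51% of ESC-only and 2.61% of shared regions, against 7.05% of all regions. With 1 ESC library at a time it was 15.2% ± 0.194 in MEF-only and 1.49% ± 0.0476 in ESC-only regions (SD, n = 3). The share rose with coverage from 12.0% in the weakest quintile of MEF-only regions to 22.1% in the strongest, and 28 of the 100 strongest held it. It was 13.1% at MEF-only promoters and 16.2% elsewhere. The CRE motif, TGACGTCA, which differs from AP-1 by its spacing, went another way, with 0.120% in MEF-only, 0.139% in ESC-only and 0.416% in shared regions (0.180% of all). The TEAD motif, CATTCCA, was found in 3.02% of MEF-only, 0.949% of ESC-only and 1.02% of shared regions (1.77% of all). For the RUNX motif, TGTGGTT, the shares were 2.56%, 1.37% and 1.03% (1.80% of all).

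Among the 3 classes, motifs of pluripotency factors were most frequent in ESC-only regions, at low shares throughout. The composite OCT-SOX motif, TTGTNATGC, occurred in 0.490% of ESC-only, 0.126% of MEF-only and 0.105% of shared regions (0.251% of all), and in 0.723% of the strongest quintile of ESC-only regions. With 1 ESC library at a time it was 0.471% ± 0.0174 in ESC-only and 0.125% ± 0.00198 in MEF-only regions (SD, n = 3). The octamer, ATGCAAAT, was present in 0.816%, 0.223% and 0.295% of ESC-only, MEF-only and shared regions (0.472% of all), and the SOX motif, CATTGTT, in 1.02%, 0.697% and 0.427% (0.765% of all). Matches to the octamer, SOX and composite motifs can share bases. ESRRB, TCAAGGTCA, gave 0.257%, 0.0404% and 0.0276% (0.141% of all), and 0.269% in the mixed regions outside the 3 classes. The KLF motif, GGGNGTGG, was the most common of these in ESC-only regions with 4.95%, against 1.88% in MEF-only and 3.52% in shared regions (3.38% of all).

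Other motifs stood in the same order as the promoter share of the classes, with shared regions highest and MEF-only regions lowest. SP (GGGGCGGGG) was found in 2.04% of shared, 0.690% of ESC-only and 0.151% of MEF-only regions (0.688% of all). NFY (AGCCAAT) had 2.02%, 1.50% and 0.691% in the same order (1.19% of all), ETS (CCGGAAGT) 0.789%, 0.187% and 0.0744% (0.240% of all), and NRF1 (GCGCATGCG) 0.185%, 0.0829% and 0.00630% (0.0735% of all). Away from promoters SP was found in 0.548% of shared, 0.585% of ESC-only and 0.104% of MEF-only regions. The shares there were 1.20%, 1.47% and 0.708% for NFY and 0.166%, 0.169% and 0.0627% for ETS. For NRF1 they were 0.0400%, 0.0737% and 0.00438%. Shared regions were thus not above ESC-only regions away from promoters for these motifs, while MEF-only regions stayed lowest. CTCF, an insulator protein, kept the order of the whole classes away from promoters. Its motif, AGGGGGCGC, occurred in 0.468% of shared, 0.319% of ESC-only and 0.0131% of MEF-only regions that were not promoters, and in 0.408%, 0.328% and 0.0189% of the classes as a whole (0.190% of all). RFX (GTTGCCATG) differed least, with 0.215% of shared, 0.176% of ESC-only and 0.137% of MEF-only regions and intervals that overlapped between neighbours (0.179% of all).

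**Figure D3:**
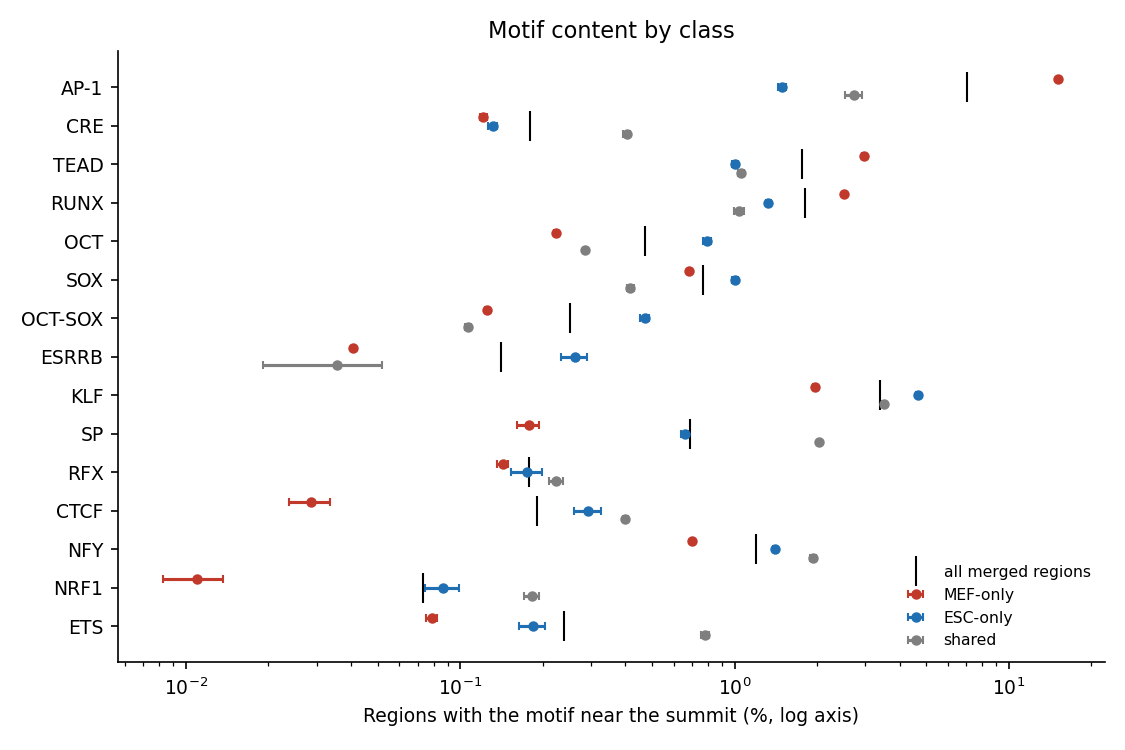
Percentage of regions of each class with a motif within 25 bp of the summit, on a log axis. Points are means over 3 comparisons of the MEF library with 1 ESC library, error bars the SD, and vertical ticks the share over all merged regions. AP-1 reaches 15.2% in MEF-only regions and 1.49% in ESC-only regions.

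Windows with these motifs, chosen after their values were seen as the strongest regions with a match, show where the motif lies against the summit at the centre. The MEF-only AP-1 windows are intergenic, 123 kb from C1d (chr11:17386817-17386917, pileup 116), and in an intron of Iqck (chr7:118930055-118930155, pileup 109). A MEF-only window in an intron of the noncoding Gm29327 (chr7:70267135-70267235, pileup 114), 88.1 kb from Nr2f2, holds a TEAD and an AP-1 motif.
AP-1 near C1d: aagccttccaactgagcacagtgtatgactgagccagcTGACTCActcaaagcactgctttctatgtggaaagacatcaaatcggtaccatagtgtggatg
AP-1 in Iqck: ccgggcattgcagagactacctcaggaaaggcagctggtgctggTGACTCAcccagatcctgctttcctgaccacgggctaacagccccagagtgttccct
TEAD and AP-1 in Gm29327: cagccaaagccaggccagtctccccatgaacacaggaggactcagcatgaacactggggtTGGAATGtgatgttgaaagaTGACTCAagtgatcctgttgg
The ESC-only windows are in an intron of Ago1 (chr4:126465913-126466013, pileups 57, 61 and 53 in ESC replicates 1, 2 and 3), with an OCT-SOX motif, and in an intron of Esrrb (chr12:86501651-86501751, pileups 73, 83 and 67), with an ESRRB motif. The strongest ESC-only region with an ESRRB motif thus lay in the gene for ESRRB itself.
OCT-SOX in Ago1: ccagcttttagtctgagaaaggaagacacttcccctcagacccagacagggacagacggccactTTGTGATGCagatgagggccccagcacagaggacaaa
ESRRB in Esrrb: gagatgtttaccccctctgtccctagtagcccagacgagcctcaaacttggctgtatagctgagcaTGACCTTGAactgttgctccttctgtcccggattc

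Genes were sorted by the regions within 2 kb of any of their transcript starts. A promoter was shared if it had a shared region, ESC-only if it had ESC-only but no MEF-only or shared region, and MEF-only in the reverse case, and regions of mixed pattern did not count. Of 21938 protein-coding genes, 64.8% had a shared promoter, 5.47% an ESC-only and 3.47% a MEF-only one. Among 37 pluripotency genes 20 were shared, 14 were ESC-only and 3 had regions of both kinds, while none was MEF-only. Of 10 leukocyte genes 4 were ESC-only, so a share of this size was not particular to pluripotency genes. Among the pluripotency genes, the 8 ESC-only promoters with the highest scaled pileup belonged to Zfp42, Mir302b, Mir290a, Gdf3, Tdh, Fgf4, Dppa5a and Sall4. Zfp42, a marker of naive pluripotency, had pileups of 59, 91 and 53 in ESC replicates 1, 2 and 3. Fgf4, a growth factor gene, had 33, 51 and 31, and Gdf3, a TGF-beta family ligand gene, had 41, 44 and 40. The transcription factor gene Sall4 had 40, 45 and 26, Tdh, which codes for threonine dehydrogenase, 39, 39 and 40, and Dppa5a 43, 47 and 34. MEFs had no peak at these promoters, which follows in the main from choosing ESC-only promoters and is no separate finding.

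Both microRNA genes in the list, each of a cluster known for its activity in ESCs, had ESC-only promoters. The Mir302b promoter (gene at chr3:127545228-127545301) had pileups of 67, 70 and 38 and that of Mir290a (gene at chr7:3218626-3218708) of 45, 49 and 41 in ESC replicates 1, 2 and 3, with none in MEFs. Their mature sequences, from RefSeq on GRCm38.p6, are shown for their seeds, bases 2 to 8, in capitals.
mmu-miR-302b-3p: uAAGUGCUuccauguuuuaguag
mmu-miR-290a-3p: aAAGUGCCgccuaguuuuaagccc
mmu-miR-302b-5p: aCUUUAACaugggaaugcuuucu
mmu-miR-290a-5p: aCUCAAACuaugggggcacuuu
The 3p seeds of the pair share their first 6 bases. The summit windows of the Mir302b promoter (chr3:127544739-127544839) and the Dppa5a promoter (chr9:78368152-78368252), the latter shown as a protein-coding counterpart, hold a SOX and a KLF motif.
Mir302b promoter: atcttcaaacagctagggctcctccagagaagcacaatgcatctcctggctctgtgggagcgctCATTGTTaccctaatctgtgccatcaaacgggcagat
Dppa5a promoter: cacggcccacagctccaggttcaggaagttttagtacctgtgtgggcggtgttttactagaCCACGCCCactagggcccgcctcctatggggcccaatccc

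The core pluripotency factors were not simply closed in MEFs. Nanog had an ESC-only region 14 bp from its start, with pileups of 33, 56 and 35 in ESC replicates 1, 2 and 3, and a weak MEF-only region 1.44 kb away with a pileup of 7. At Sox2 the promoter was shared, with 24 in MEFs and 38, 47 and 29 in ESCs, and an ESC-only region beside it had 8, 13 and 11. Esrrb had a shared region 38 bp from a start site (14 in MEFs, and 11, 14 and 10 in ESCs), whereas the region 34 bp from a start site further downstream was ESC-only with 45, 70 and 56. Klf4, which fibroblasts also express, was shared with 40 in MEFs and 37, 36 and 29 in ESCs and had 2 further MEF-only promoter regions with pileups of 19 and 25. At Tdgf1 the highest promoter pileups were 5 in MEFs and 30, 38 and 35 in ESCs.

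Pou5f1 on chromosome 17, from 35506018 to 35510772, stood apart in coverage. ESC replicate 1 had a single peak of 7199 bp from 35503234 to 35510432 that ran over the promoter, with a pileup of 612, and ESC replicate 3 had peaks of 2396 and 4624 bp there with pileups of 591 and 281. In ESC replicates 1 and 3 the summit upstream of the gene was the second highest of the whole library. ESC replicate 2 had no peak between these coordinates, although its next peak downstream, with a pileup of 194, was like those of the other ESC libraries (210 and 176). MEFs had 1 peak inside the span, with a pileup of 48 at 35509492, near the 3′ end of the gene. The reporter in both groups carries regulatory sequence of Pou5f1, so reporter and endogenous DNA cannot be told apart here, and why ESC replicate 2 had no peak there was not tested.

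Fibroblast matrix and surface genes showed the opposite picture, in a graded form. Of 35 such genes 27 had a shared promoter, 8 a MEF-only one and none an ESC-only one. The MEF-only promoters were those of Acta2 (smooth muscle actin), with a pileup of 76 in MEFs, S100a4 with 65, Col6a1 with 23, Col3a1 with 20, Fap with 20, Bgn (biglycan) with 17, Postn (periostin) with 16 and Lum (lumican) with 9. ESC replicate 2 had peaks of 8 and 6 at S100a4 and Col6a1, and no other ESC library had a peak at any of the 8. At 25 of the 35 promoters all 4 libraries had a peak, and MEFs had a higher scaled pileup than every ESC library at 24 of them, with a median ratio of 2.39 to the ESC mean. Over all 14385 protein-coding promoters open in all 4 libraries, MEFs were above every ESC library at 56.1% and below every one at 25.1%, with a median ratio of 1.19. By the highest pileup within 2 kb of a start site, Col1a2 had 68 in MEFs and 12, 14 and 8 in ESCs. Col1a1 had 50 in MEFs, from a MEF-only region, and 22, 20 and 15 in ESCs, from a shared region with 32 in MEFs. Thy1 had 21 in MEFs and 12, 9 and 7 in ESCs, and Thbd, which codes for thrombomodulin, had 23 in MEFs and 12, 13 and 10 in ESCs. Dab2, an endocytic adaptor gene, had the highest MEF value in the list with 99 against 15, 19 and 13. The exception was Pdgfra with 41 in MEFs and 48, 52 and 46 in ESCs.

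Mesenchymal transcription factor genes were open at their promoters in both groups. Of 24 genes, 23 had a shared promoter and 1, Tcf21, was MEF-only, with a pileup of 5. At 21 promoters with a peak in all 4 libraries, MEFs were above every ESC library at 18 and below every one at 2, with a median ratio of 1.87. Twist1 had 44 in MEFs and 10, 13 and 10 in ESCs. Prrx1 had 14 in MEFs and 13, 9 and 7 in ESCs, the MEF value coming from a MEF-only region 25 bp from the start and the ESC values from a shared region 1.63 kb away. In that shared region MEFs had 9. Genes for AP-1 and TEAD factors and their partners were shared in 19 of 20 cases, the other, Batf, being MEF-only with 8 in MEFs and a peak of 4 in ESC replicate 1. Subunits of the BAF remodeling complex were shared in 20 of 20 cases and housekeeping genes in 23 of 24. At the promoters of the BAF list MEFs were above every ESC library at 14 of 20, with a median ratio of 1.27, and of the housekeeping list at 15 of 23, with 1.36. Ratios near these values therefore also occurred in genes not tied to either cell type.

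**Figure D4:**
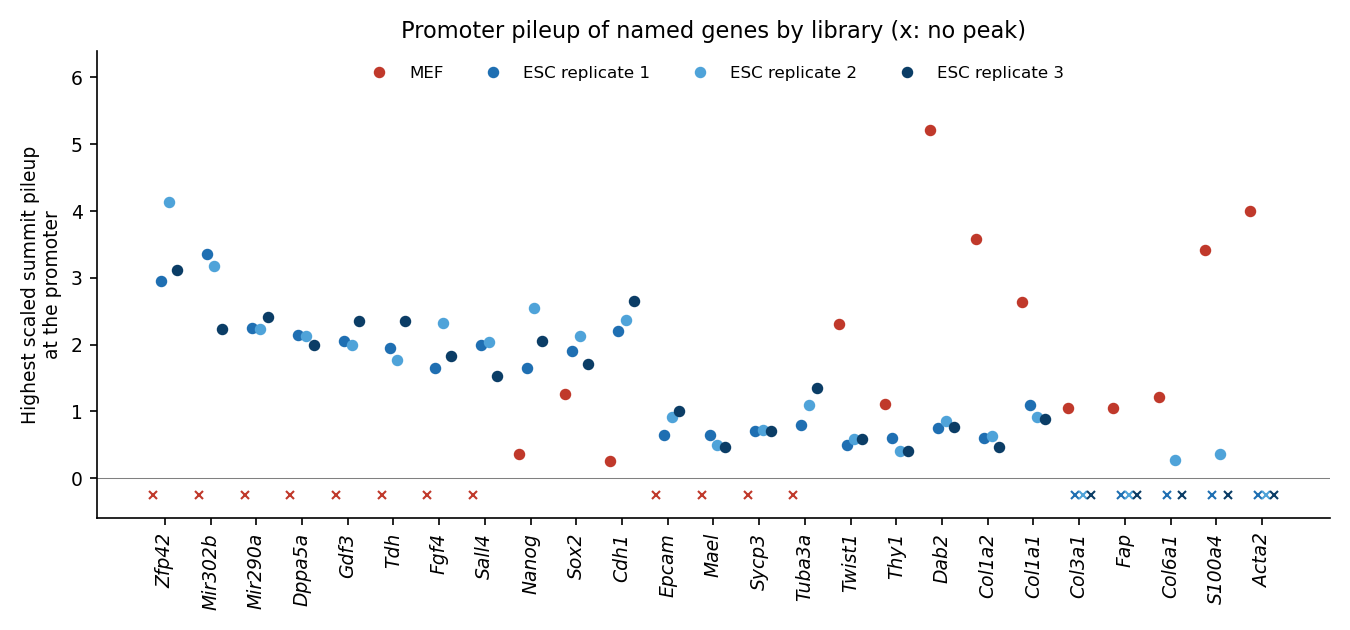
Highest scaled summit pileup at the promoter of named genes in each library, with MEFs in red and ESC replicates 1 to 3 in blue, and a cross below the line where the library had no peak. Pluripotency genes from Zfp42 to Sall4 have no MEF peak, and Acta2, Fap and Col3a1 have no ESC peak. Pou5f1 is left out because its ESC values lie far above the axis.

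Epithelial genes leaned towards ESCs, which grow as epithelial colonies. Of 20 genes 13 were shared, 4 were ESC-only, 2 had regions of both kinds and 1, the desmosome gene Pkp3, was MEF-only with a pileup of 5 in MEFs, where ESC replicate 2 also had a peak of 8. The ESC-only promoters were those of Epcam, an adhesion molecule (13, 20 and 17), Esrp1, a splicing regulator (28, 28 and 24, with a peak of 6 in MEFs from a mixed region), Cldn4, a tight junction gene (16, 22 and 19), and the transcription factor gene Grhl2 (16, 15 and 10). Cdh1, which codes for E-cadherin, was shared but unequal, with a pileup of 5 in MEFs and 44, 52 and 45 in ESCs. At 16 promoters open in all 4 libraries MEFs were below every ESC library at 13, with a median ratio of 0.526, the same as the 0.526 of the 22 such pluripotency promoters, where MEFs were below every ESC library at 16.

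Germline genes had the highest share of ESC-only promoters of all lists examined, 18 of 25 (72.0%), with 5 shared, 1 of both kinds, 1 with no region and none MEF-only. The number was 12 with peaks of score 100 or more, and 13 when all 3 ESC libraries were required or ESC replicate 2 was left out. Under the same settings 16, 17 and 16 of the 37 pluripotency genes were ESC-only. The gene lists were chosen with earlier results of these data known, so the rank of the germline list is a description and no independent finding. The 5 shared germline promoters ranged widely, with pileups at Stag3, a cohesin gene, of 107 in MEFs and 68, 84 and 54 in ESCs, and at Dazl, an RNA-binding protein gene, of 58 in MEFs and 51, 59 and 37 in ESCs, but at Smc1b, also a cohesin gene, of 9 in MEFs and 10, 12 and 10 in ESCs. Many of these genes are silenced in somatic cells by methylation of CpG-rich promoters. Among these 18 the highest scaled pileups were at Tuba3a (16, 24 and 23 in ESC replicates 1, 2 and 3), Piwil2, a piRNA pathway gene (20, 17 and 10), Stk31 (16, 20 and 8), and the synaptonemal complex gene Sycp3 (14, 16 and 12). After them came Taf7l (11, 16 and none), Syce1 (11, 14 and 12), the piRNA factor gene Mael (13, 11 and 8), Ddx4 (9, 11 and 11) and Tdrd1 (none, 10 and 11). The ESC pileups were low beside those of Zfp42 or Dppa5a. The 18 genes, Rpl10l and Brdt, whose promoter also had a shared region, had 24 ESC-only promoter regions in all, with a median GC content of 62.5%. Of these 17 were CpG-rich, 1 had a repeat-masked summit and 17 were open in all 3 ESC libraries. The window of the Mael promoter (chr1:166238687-166238787), 7 bp from the start, is shown as an example of this composition, and none of the motifs lay within 50 bp of its summit.
Mael promoter: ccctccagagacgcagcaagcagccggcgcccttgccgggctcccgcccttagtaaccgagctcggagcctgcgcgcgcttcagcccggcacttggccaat

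Hox genes were open in both groups. Of 39 genes 29 were shared, 5 were ESC-only (Hoxa13, Hoxb1, Hoxc8, Hoxc9 and Hoxd8), 2 were MEF-only (Hoxa11, with 7, and Hoxb6, with 19 in MEFs and 7 in ESC replicate 3), 2 had regions of both kinds and 1 had none. Mixed regions gave MEF pileups of 12, 6 and 10 at Hoxc8, Hoxc9 and Hoxd8, close to the ESC values of 8 to 15, so the promoters of these 3 genes were not without peaks in MEFs. At 33 promoters open in all 4 libraries MEFs were above every ESC library at 13 and below at 13, with a median ratio of 0.952.

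Markers of other cell types were mixed. Against the 70.3% of all protein-coding genes with an open promoter in MEFs and 71.2% to 72.9% in ESCs, open promoters numbered 8 of 10 endothelial genes in MEFs and 7 in each ESC library, 9 of 10 neuronal genes in all 4 libraries, 3 of 10 leukocyte genes in MEFs and 4, 7 and 7 in ESCs, 1 of 10 hepatocyte genes in MEFs and 2 in each ESC library, and 3 of 10 keratinocyte genes in MEFs and 6, 5 and 5 in ESCs. Of 12 endoderm and trophoblast genes 11 were open in MEFs and 11, 10 and 11 in ESCs. By promoter state, 4 of the 10 leukocyte genes were ESC-only, 1 was MEF-only and 2 were shared. Open promoters do not measure expression, and the part of other cells in these values was not tested. Of the leukocyte genes, Coro1a, a coronin gene, had pileups of 29 in MEFs and 32, 38 and 28 in ESCs, and the kinase gene Lck had 26 in MEFs and 18, 19 and 13 in ESCs. Ptprc, which codes for CD45, had 8, 14 and 9 in ESCs and no peak in MEFs, and Itgam had 8, 6 and 5 in ESCs and none in MEFs. Cd3e and Cd79a, which code for parts of the T-cell and B-cell receptor complexes, had no pileup above 10 in any library, and Cd3g and Tyrobp had no peak.

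**Figure D5:**
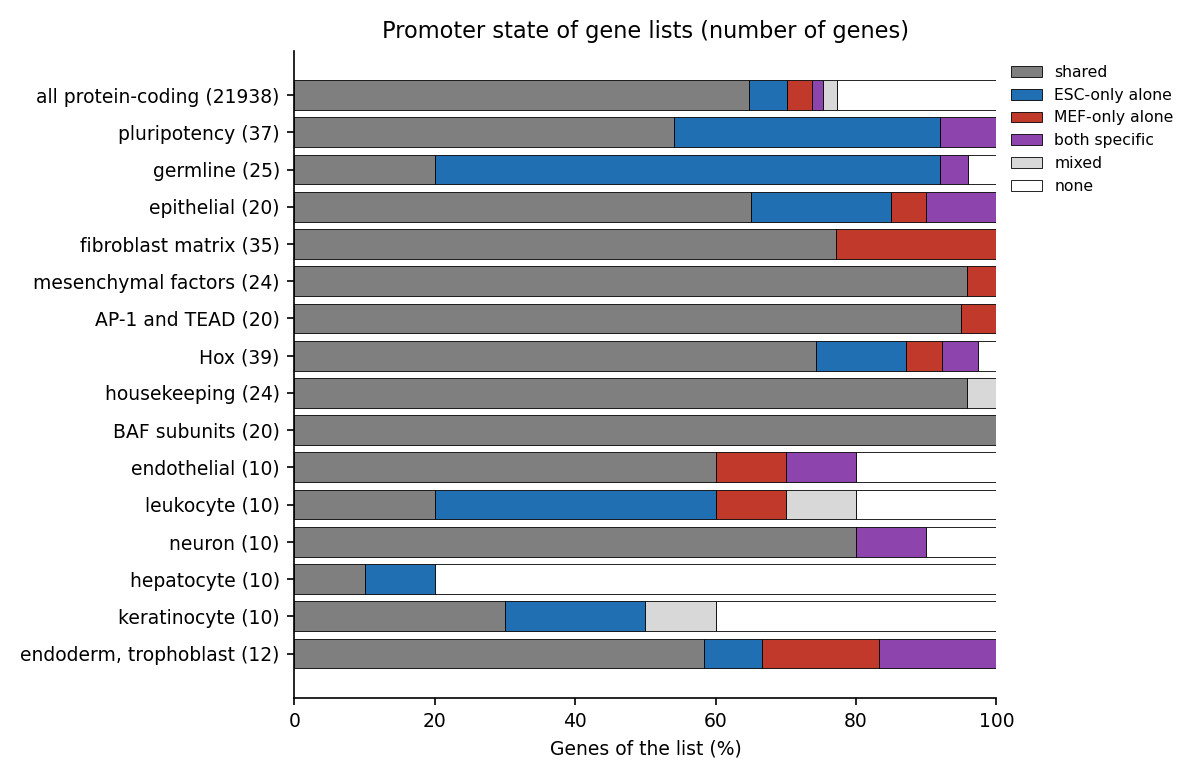
Percentage of the genes of each list by promoter state, with the number of genes in parentheses and all protein-coding genes at the top. ESC-only promoters make up 72.0% of the germline list and 5.47% of all protein-coding genes.

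Regions around the genes differed between the lists as well. Within 50 kb of a start site, 47.1% of protein-coding genes had more ESC-only than MEF-only regions and 35.6% had more MEF-only ones, and the medians were 4 ESC-only and 3 MEF-only regions. For pluripotency genes the medians were 10 ESC-only and 3 MEF-only regions, and 36 of 37 genes had more ESC-only ones. The exception was Klf4, with 1 ESC-only and 8 MEF-only regions. Esrrb had 23 ESC-only regions and Mir290a 20. For fibroblast matrix genes the medians were 11 MEF-only and 3 ESC-only regions, and 33 of 35 genes had more MEF-only ones, the others being Fn1 and Sparc. Mesenchymal factor genes, whose promoters were shared in 23 of 24 cases, had medians of 6 MEF-only and 2 ESC-only regions, and 18 of 24 had more MEF-only ones. Prrx1 had 22 MEF-only and 2 ESC-only regions although its promoter was shared, while Twist1 had 3 and 1. Around germline genes the medians were 2 MEF-only and 3 ESC-only regions, close to those of all genes. Genes with longer spans of start sites cover more DNA in this count, and neighbouring genes can share regions.

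At the collagen genes the strongest MEF-only regions lay between genes. Col1a1 had MEF-only regions 2.55 and 7.36 kb from a start site with pileups of 66 and 70, besides 1 at the start (22 bp away) with 50. Col1a2 had MEF-only regions 16.3 and 14.8 kb from its nearest start site with 58 and 42, which lay closer to a start site of the noncoding Gm37883. At Sall4 an ESC-only region 23.3 kb from the start had pileups of 29, 40 and 36 in ESC replicates 1, 2 and 3, and at Cdh1 3 intronic ESC-only regions lay 28.0 to 29.4 kb from a start site.

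Class-specific regions also gathered into clusters, defined as regions of 1 class with gaps of at most 10 kb. There were 2002 MEF-only clusters of 5 regions or more, 1026 ESC-only and 362 shared ones, holding 15.7%, 11.1% and 6.08% of the regions of the class. The ESC-only number fell to 502, 456 and 637 without ESC replicate 1, 2 and 3, when a region had to be open in both of the ESC libraries that were kept. With equal numbers of top-scoring peaks per library there were 893 MEF-only and 853 ESC-only clusters, so the MEF-only number was higher by much less. Under that setting the largest MEF-only cluster held 16 regions, the largest ESC-only cluster 18 and the largest shared cluster 26. The MEF-only cluster with most members held 20 regions over 84.0 kb of chromosome 4 near Errfi1, a feedback inhibitor of EGF receptor signalling, with a median pileup of 9.5 and a highest of 63. The next covered Runx2, a transcription factor of the bone lineage, with 18 regions over 93.2 kb. Clusters of 16 lay near Ddx1, near the collagen gene Col5a1 (highest pileup 62, median 23) and in Unc5c, and 1 of 15 held Lrrc32. The ESC-only cluster with most members held 16 regions over 67.9 kb over Esrrb, with median pileups of 19.5, 24.5 and 19.5 in ESC replicates 1, 2 and 3. Clusters of 14 lay in Arl15, over the Pcdhg protocadherin genes of chromosome 18 and over the noncoding Firre gene of the X chromosome. Near Prdm14, a regulator of naive pluripotency, 13 ESC-only regions lay within 52.3 kb that held no MEF-only or shared region, and 12 lay in Rftn2. The shared cluster with most members held 27 regions over 97.5 kb of the histone gene cluster on chromosome 13, with median pileups of 32 in MEFs and 26, 24 and 20 in ESCs.

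Regions open in all 4 libraries could still differ in strength. Of the 31981, MEFs exceeded every ESC library by 4-fold or more in scaled pileup at 323 (1.01%) and lay below every one by as much at 391 (1.22%). The same rule applied to each ESC library against the other two found 0 regions in either direction. The AP-1 motif lay in 17.3% of the 323 regions higher in MEFs and in 1.28% of the 391 higher in ESCs, as it did in the MEF-only and ESC-only classes. The largest ratio towards MEFs was in an intron of Camk2d, with pileups of 164 in MEFs and 8, 8 and 6 in ESCs (21.6-fold over the highest ESC value after scaling). Next came a region 52.4 kb from Pfkfb3 with 147 and 6, 11 and 7, a region 21.1 kb from Arhgap27 with 109 and 8, 9 and 6, an intron of 2010111I01Rik with 90 and 6, 7 and 6, and the Ahnak promoter with 136 and 10, 9 and 10. Towards ESCs the largest ratio was 38.3 kb from Larp1, with 5 in MEFs and 66, 90 and 79 in ESCs (12.5-fold). A region 135 kb from Rybp, beyond the ESC-only regions 48.2 and 90.7 kb away, had 6 in MEFs and 88, 99 and 60 in ESCs.

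The classes were spread over all chromosomes in proportions that varied by degree. Chromosome 11 had 4332 ESC-only and 4203 MEF-only regions, a ratio of 1.03, while the other autosomes and the X chromosome had ratios of 0.590 to 0.903. The 0.903 was that of chromosome 6, where 30.3% of regions were ESC-only, against 29.8% on chromosome 11. On the Y chromosome there were 28 regions in all.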

How the data were processed

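ATAC-seq libraries of MEFs (1) and ESCs (3) were analysed. Per the submitters' processing notes and the study's methods, the authors trimmed reads with Trim Galore 0.6.4, aligned them to mm10 with Bowtie2 2.4.5, used SAMtools 1.16.1 to drop mitochondrial, low-quality and repetitive reads, and called peaks with MACS 1.4.2 library by library, with duplicates kept and no shift model. An input control is not mentioned. The score that the authors deposited with a peak is the MACS p-value as a negative log10 multiplied by 10 (lowest 50). The signal that the authors deposited with a summit is its pileup, the coverage in tags, not scaled to depth. Depth is unknown, so peak numbers and pileups are the only guide to precision.

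Peaks on 21 chromosomes were used, and 16 to 44 peaks per library on other sequences were left out. On each chromosome the last peak lay inside the GRCm38.p6 length. A region takes its summit from the peak with the highest scaled pileup. Start sites came from GENCODE M21, sequence and soft-masked repeats from RefSeq. Merging, classes, places, motifs and clusters were computed with Python 3.11.15, pandas 2.3.3, numpy 2.4.6 and scipy 1.17.1 and tested on simulated peaks. Groups came from sample titles. The members, gene lists and motifs were chosen with earlier results of these data known. Genes were named as up to 8 per list with an ESC-only or MEF-only promoter by highest scaled pileup, with a fixed set of markers, and regions as the 6 strongest and the 6 largest clusters per class. Others named in counts, as exceptions or by ratio were chosen after their values were seen. Alternatives were a score of 100 or more, equal peak numbers, all 3 ESC libraries, each ESC library left out, an overlap of 50 bp, promoters of 1 kb or of protein-coding genes alone, motifs within 50 bp, clusters at 5 kb and ranking by score. Scores entered no other result.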

Additional observations from a re-analysis of the deposited data

How the results depend on the processing

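Of 156 values recomputed under alternatives, 95 moved by less than the spread between ESC libraries (counts by no more than 1.5 times) and 61 moved further, and no direction was tested with 1 MEF library. The promoter share stood in the order shared, ESC-only, MEF-only in 9 of 9 settings, the number of regions in the order MEF-only, ESC-only, shared in 8 of 8, and the AP-1 share was higher in MEF-only than in ESC-only regions in 8 of 8. With peaks of score 100 or more, there were 46679 MEF-only, 33127 ESC-only and 24118 shared regions, 14.2%, 20.3% and 62.3% of them at promoters. Median peaks were 307 bp in MEF-only and 281 bp in ESC-only regions, the medians near pluripotency and matrix genes 6 ESC-only and 7 MEF-only regions, AP-1 was in 17.6% of MEF-only and OCT-SOX in 0.561% of ESC-only regions, and clusters of 5 or more numbered 413, 191 and 93 (MEF-only, ESC-only, shared). With the 97417 best-scoring peaks of each library, promoters made up 19.4% of ESC-only and 54.8% of shared regions, median peaks were 265 bp in MEF-only and 229 bp in ESC-only regions, AP-1 was in 17.2% of MEF-only regions, and there were 893 MEF-only, 853 ESC-only and 222 shared clusters, the largest MEF-only one of 16 and the largest ESC-only one of 18 regions. Requiring all 3 ESC libraries gave 37114 ESC-only regions with a median of 241 bp, OCT-SOX in 0.569% of them, 327 clusters and 54.8% of shared regions at promoters. Promoters of 1 kb held 8.43% of MEF-only, 12.2% of ESC-only and 46.1% of shared regions, and protein-coding starts alone 8.90%, 12.7% and 46.5%. Within 50 bp of the summit, AP-1 was in 28.0% of MEF-only and 3.05% of ESC-only and OCT-SOX in 1.13% of ESC-only regions, a window that holds more bases. Clusters at 5 kb had at most 12 (MEF-only), 10 (ESC-only) and 9 (shared) regions, with 326, 159 and 36 clusters of 5 or more. Ranked by score, 53 MEF-only, 43 ESC-only and 53 shared regions stayed among the 100 strongest. The ESC-only germline promoters numbered 12 to 19 of 25 over all settings, 12 with peaks of score 100 or more. An overlap of 50 bp moved none of the 3 class counts by over 1.5 times. Leaving out each ESC library gave promoter shares of 13.8% to 14.1% (MEF-only), 18.9% to 19.3% (ESC-only) and 53.2% to 54.6% (shared), AP-1 in 15.5% to 15.7% of MEF-only and 1.48% to 1.58% of ESC-only regions, OCT-SOX in 0.537% to 0.556% and a median of 225.5 to 232 bp in ESC-only regions, and 456 to 637 ESC-only clusters. Except where fewer peaks, wider windows or shorter gaps set the change by construction, the cause was not tested. No paired analysis was possible because the MEF group is 1 library. Unknown depth limits every call of closed chromatin, since a weak peak can be missed.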
